A study of Mus musculus with 12 samples.

Results

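Expression of 10 genes that mark epithelial cells was followed in tumourspheres of mouse mammary tumour lines after inhibition of Met, of the FGF receptors, or of both. The members were the keratins Krt7, Krt8, Krt18, Krt19, Krt14 and Krt5, the adhesion molecule Epcam and the claudins Cldn23, Cldn3 and Cldn7, found by symbol in a table of read counts over 55573 genes, which holds 55 keratin and 34 claudin genes in all. RNA-sequencing was done on 12 libraries from the spindloid lines A1005, A1129 and A1471, with 1 library for each line and treatment. All carry the genotype MMTV-Metmt;Trp53fl/+;Cre, in which the MMTV promoter directs a mutant Met transgene to the mammary gland and Cre acts on 1 floxed allele of Trp53, and each line was grown from a dissociated mammary tumour, so a line stands for 1 tumour. The treatments lasted 24 h and were the vehicle DMSO, the Met inhibitor Crizotinib, the FGF receptor inhibitor PD173074, and both inhibitors together (Combo), at 1 µM each per the study's methods. The DMSO libraries are the controls and share the genotype, the tumoursphere culture and the tumour type of the treated ones, and no library from non-spindloid tumour cells was analysed here.

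Keratins are the intermediate filament proteins of epithelial cells. A filament is built from pairs of an acidic type I and a basic type II chain, and a chain without a partner is degraded, so the usual partners are made together. Krt8 (type II) and Krt18 (type I) form the filaments of simple epithelia and of mammary luminal cells, joined there by Krt7 (type II) and Krt19 (type I), whereas Krt5 (type II) and Krt14 (type I) are the pair of basal cells. Epcam is a homophilic adhesion molecule of epithelial membranes. Claudins are membrane proteins of the tight junction, and low claudin expression is a known mark of mesenchymal-like mammary tumours.

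Library totals ranged from 13031492 to 17750476 counts, and 13836 genes passed the filter on low counts (edgeR's filterByExpr) and were tested. Of the members, 6 were tested (Krt7, Krt8, Krt18, Krt19, Cldn23 and Cldn3). The other 4 were not: Krt14 and Epcam because of few counts, and Krt5 and Cldn7 because they had 0 counts in all 12 libraries. Vim (vimentin, the mesenchymal intermediate filament) was abundant, at 2890 CPM ± 353 (SD, n = 3 lines) with DMSO. Here CPM are counts scaled to a common library size after TMM normalisation. Of 10 mesenchymal markers 8 passed the filter, but so did 7 of 13 mammary luminal and 3 of 8 mammary basal markers. Passing the filter thus does not set these lineages apart. With DMSO, the mesenchymal Prrx1 had 2, 4678 and 4314 counts in A1005, A1129 and A1471, and Cdh2 had 1, 0 and 2. The luminal marker Cdh1 (E-cadherin) had 0, 2 and 0 in the same order. Endothelial markers summed to 0.207 to 0.395 CPM with DMSO. Of 7 immune markers 1 was tested: Ptprc (CD45) had 174 to 339 counts in the A1005 libraries and at most 2 in each of the others, while Cd3e, Adgre1, Itgam and Lyz2 had at most 2 counts in every library.

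In the mouse genome build mm10, 4 members lie in the keratin cluster of chromosome 15 with Krt7 at chr15:101411043-101430313 (plus strand), Krt5 at chr15:101707070-101712898 (minus), Krt8 at chr15:101996698-102004482 (minus) and Krt18 at chr15:102028180-102032027 (plus). Krt18 is the only type I keratin gene that sits in this type II cluster, and its annotated start is 23.7 kb from that of Krt8, on the opposite strand. Krt19 (chr11:100140810-100148665, minus) and Krt14 (chr11:100203162-100207548, minus) lie in the type I cluster of chromosome 11, with starts 58.9 kb apart. Cldn7 is also on this chromosome (chr11:69964779-69967885, plus), Epcam is at chr17:87635979-87651129 (plus), Cldn3 at chr5:134986214-134987472 (plus) and Cldn23 at chr8:35824712-35826559 (minus), the last 2 with a single exon. Antisense transcripts share 77 exonic bases with Krt7 and 101 with Krt8, but those transcripts held 1 and 19 counts in all libraries together.

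The repressors Zeb1, Zeb2, Snai1 and Snai2 bind E-boxes with the letters CACCTG, and epithelial genes are known targets. RefSeq promoter windows of 300 bases (250 before to 50 after the start, GRCm38.p6) were found for 8 members, other than Krt19 and Cldn23, with 2 windows for Cldn7 and 1 for each of the others. CACCTG or its reverse complement CAGGTG was in 7 of these 9 windows, against 20.2% of all 32851 windows. The 4 windows below are those of Krt7 and Krt18, which were called in the paired test of Combo against DMSO, of Krt8, the partner of Krt18, and of Epcam, the adhesion molecule, and are written 5′ to 3′ on the gene's strand with the E-box in capitals. They lie at chr15:101412153-101412452 (Krt7, plus), chr15:102004293-102004592 (Krt8, minus), chr15:102027966-102028265 (Krt18, plus) and chr17:87635729-87636028 (Epcam, plus). The RefSeq starts of Krt7, Krt8 and Krt18 lie inside the gene spans given above, which begin further upstream.
Krt7: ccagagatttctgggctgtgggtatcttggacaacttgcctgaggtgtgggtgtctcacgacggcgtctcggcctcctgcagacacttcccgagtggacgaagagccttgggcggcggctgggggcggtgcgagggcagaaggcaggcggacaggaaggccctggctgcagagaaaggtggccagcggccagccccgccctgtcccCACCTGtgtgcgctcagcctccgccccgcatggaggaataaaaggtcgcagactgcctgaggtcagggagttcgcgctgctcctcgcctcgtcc
Krt8: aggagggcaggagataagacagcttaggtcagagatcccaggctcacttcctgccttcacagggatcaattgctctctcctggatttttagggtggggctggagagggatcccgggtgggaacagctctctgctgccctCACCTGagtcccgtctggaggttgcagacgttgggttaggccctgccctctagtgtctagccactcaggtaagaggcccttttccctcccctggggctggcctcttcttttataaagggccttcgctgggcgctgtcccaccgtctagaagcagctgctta
Krt18: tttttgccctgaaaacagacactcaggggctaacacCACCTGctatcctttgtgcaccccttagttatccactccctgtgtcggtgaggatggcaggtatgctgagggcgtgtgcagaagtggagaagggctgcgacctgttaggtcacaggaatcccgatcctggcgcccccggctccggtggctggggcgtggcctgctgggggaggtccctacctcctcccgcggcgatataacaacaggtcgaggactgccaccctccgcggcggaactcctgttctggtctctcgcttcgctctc
Epcam: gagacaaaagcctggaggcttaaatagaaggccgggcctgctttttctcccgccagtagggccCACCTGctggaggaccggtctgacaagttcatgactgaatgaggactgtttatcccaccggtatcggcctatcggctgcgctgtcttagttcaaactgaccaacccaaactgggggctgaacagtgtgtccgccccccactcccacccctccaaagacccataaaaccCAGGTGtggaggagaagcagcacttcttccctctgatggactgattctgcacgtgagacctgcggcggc
The match starts 44 bases upstream of the start in Krt7, 111 in Krt8 and 214 in Krt18, and Epcam has 1 match 187 bases and 1 match 19 bases upstream. The window of Krt14 and 1 of the 2 windows of Cldn7 held none. The Krt14 window (chr11:100205981-100206280) lies within the gene span and does not cover its annotated start. The AP-1 letters TGANTCA (7.81% of all windows) and the Grainyhead-like letters AACCGGTT (0.146%) were in no member's window. These are matches of letters on both strands and say nothing about binding.

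With DMSO the epithelial genes stood at low to moderate levels, and the order differed between lines. Per kb of transcript, Krt18 was at 13.9 CPM ± 10.9 (SD, n = 3 lines), Krt19 at 9.32 ± 16.1, Krt8 at 3.6 ± 3.51 and Cldn3 at 0.845 ± 1.42. The median of all tested genes was 8.25 CPM per kb, and 62.3% of tested genes lay below Krt18 and 33.9% below Krt8. Cldn23 (0.255 ± 0.14), Epcam (0.247 ± 0.102) and Krt7 (0.227 ± 0.155 CPM per kb) formed a low group, with Krt14 at 0.046 ± 0.0796. The place of Krt7 depends on its transcript length of 4094 bases, against 2040 for Epcam and 1848 for Cldn23. Without scaling by length Krt7 was at 0.93 CPM, Epcam at 0.503 and Cldn23 at 0.471. The ranges over lines of each pair of neighbours in this order overlapped. Genes of a library are paired, however, and Krt8 lay above its neighbour Cldn3 in every line. The values were 7.46 against 2.48 CPM per kb in A1005, 0.571 against 0 in A1129 and 2.79 against 0.0549 in A1471. Other neighbours tied or changed order in at least 1 line, and no difference between genes was tested. A count of 0, as for Krt5 and Cldn7, allows up to 3 counts, which is 0.167 to 0.234 CPM in these libraries. The reads carry no molecular identifiers and are no independent molecules, hence this limit and the intervals below cover counting error only.

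**Figure D1:**
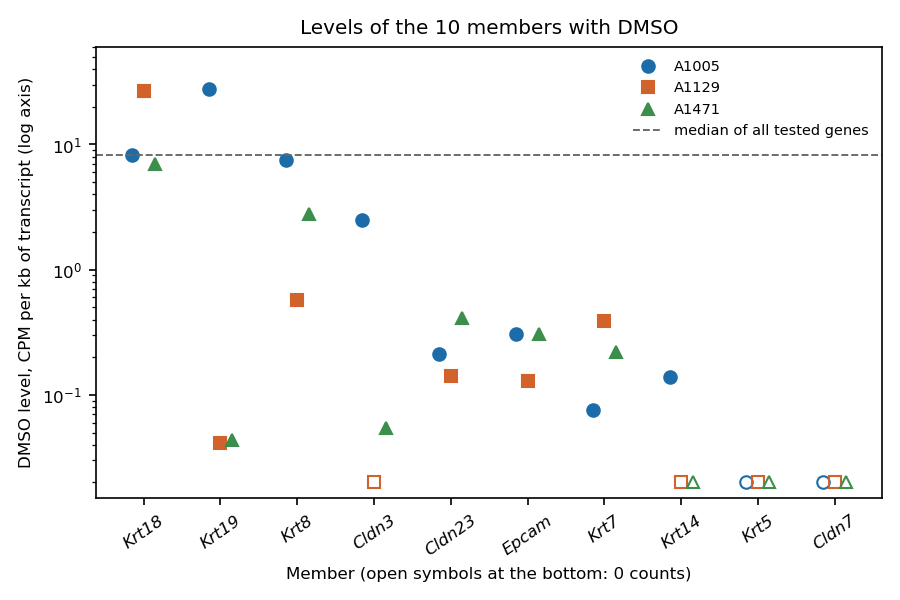
Level of each member with DMSO (vertical axis, CPM per kb of transcript on a log axis), with 1 symbol per line and the dashed line at the median of all tested genes (8.25 CPM per kb). Krt19 and Cldn3 spread most between lines, and open symbols at the bottom mark 0 counts, as for Krt5 and Cldn7 in every line.

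Large differences between the lines were seen in these genes. In bulk RNA, fewer cells of a type and less RNA per cell cannot be told apart, here and in all later comparisons. The type I keratin Krt19 had 563, 626, 302 and 110 counts in A1005 with DMSO, Crizotinib, PD173074 and Combo, but 1, 0, 0 and 1 in A1129 and 1, 2, 0 and 1 in A1471. Cldn3, a sealing claudin of the tight junction, had 40, 54, 36 and 72 counts in A1005, 0 in all 4 libraries of A1129, and 1 count in 1 of the 4 libraries of A1471. The A1005 libraries were thus above all others for both genes, with no overlap. Pooled over treatments, Krt19 was 778-fold higher in A1005 than in A1129 (95% exact interval 215 to 6430) and 360-fold higher than in A1471 (140 to 1320). Cldn3 was 65.5-fold higher in A1005 than a floor of 3 counts over the 4 A1129 libraries. With counting error the lower bound against A1129 was 52.8-fold (95% exact interval). Against A1471, Cldn3 was 181-fold higher in A1005 (32.2 to 7200.0). Ptprc was likewise high in A1005 alone, and its part in these differences was not tested.

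Krt8 and Krt18 did not share an order over lines. Krt8 averaged 21.9 CPM ± 8.39 (SD, n = 4 treatments) in A1005, 5.19 ± 2.75 in A1471 and 1.82 ± 0.587 in A1129. Krt18 averaged 31.6 CPM ± 14.8 in A1129, 11 ± 6.13 in A1005 and 7.72 ± 4.13 in A1471. A1129, the line lowest in Krt8, was therefore highest in Krt18. Krt7 was likewise higher in A1129 (4.16 CPM ± 4.17) and A1471 (2.61 ± 2.49) than in A1005 (0.887 ± 0.875), although the ranges of the lines overlapped.

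In edgeR's quasi-likelihood test of lines with a term for treatment, 5 of the 6 tested members differed between A1129 and A1005 (57.8% of all tested genes did), all 6 between A1471 and A1005 (57.7%), and 4 between A1471 and A1129 (45.9%). Against A1005, the log2 fold change in A1129 was -3.60 (SE 0.38, adjusted p = 2.0e-05) for Krt8, 1.55 (SE 0.12, adjusted p = 1.7e-06) for Krt18 and 2.17 (SE 0.24, adjusted p = 3.0e-05) for Krt7, while Cldn23 (-0.34, SE 0.30, adjusted p = 0.478) did not pass. Against A1005, the log2 fold change in A1471 was -2.08 (SE 0.35, adjusted p = 5.4e-04) for Krt8, -0.51 (SE 0.12, adjusted p = 0.00466) for Krt18, 1.54 (SE 0.25, adjusted p = 4.5e-04) for Krt7 and 0.98 (SE 0.26, adjusted p = 0.00798) for Cldn23. Krt19 and Cldn3 passed the filter only through A1005, the line where they are high, so their calls against A1005 were bound to follow and the counts of members are not set against the shares of all genes. Cldn23, highest in A1471, failed the filter without that line, so its calls for A1471 are limited in the same way. The 4 libraries of a line are 1 line under 4 treatments, so these p-values measure only how far a line differs beyond its spread over treatments. Without the treatment term the counts were 4, 3 and 2 of 6, and the Krt7 call between A1129 and A1005 was lost (adjusted p = 0.0936).

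**Figure D2:**
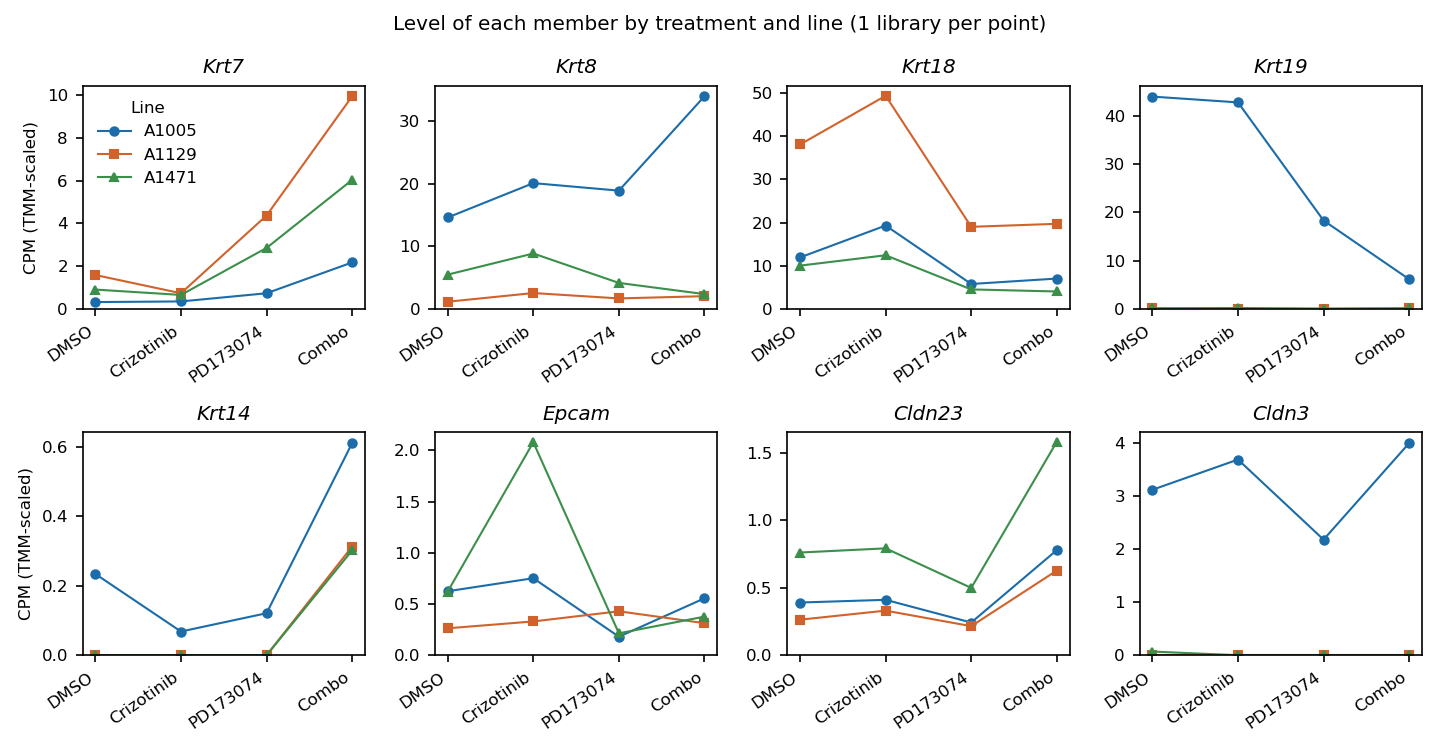
Level of each member with any counts (vertical axis, CPM on TMM-scaled library sizes, linear from 0) in the 4 treatments (horizontal axis), 1 library per point, with points of a line joined. Krt7 is highest with Combo in every line (2.17, 9.96 and 6.04 CPM in A1005, A1129 and A1471), Krt18 is lower with PD173074 and Combo than with DMSO in every line, and Krt19 and Cldn3 are seen in A1005.

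With the combination of Met and FGFR inhibitors, Krt7 was higher and Krt18 lower than with DMSO in all 3 lines, Krt19 was lower in the line that has it, and Cldn23 was higher in all 3 lines from very few counts. In the unpaired edgeR test, which follows the study's unpaired design, 0 of the 6 tested members passed an adjusted p of 0.05 against DMSO, where 14.4% of all tested genes did. One member, Krt7, had an unadjusted p under 0.05. DESeq2 called 1 (Krt7, adjusted p = 0.00852) and limma-voom 0. For Krt19 and Cldn3 DESeq2 gave no p, here and in the other comparisons of treatments. When the cell line entered as a block, which compares each treated library with the DMSO library of its own line, edgeR called 4 of 6 (Krt7 and Cldn23 higher, Krt18 and Krt19 lower) against 54.8% of all tested genes, so the share of members called was near that of all genes. The median log2 fold change of all tested genes was 0.03 in that fit. Cldn23 is among the members called, although it passed the filter only with the Combo libraries kept.

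Krt7, the luminal type II keratin of ductal epithelia, had 4, 24 and 13 counts with DMSO in A1005, A1129 and A1471, and 39, 159 and 80 with Combo. Every Combo library lay above every DMSO library, with levels of 2.17, 9.96 and 6.04 CPM against 0.312, 1.58 and 0.898. Within a line the ratio of Combo to DMSO was 6.94 in A1005 (95% exact interval 2.5 to 26.7), 6.31 in A1129 (4.09 to 10.1) and 6.72 in A1471 (3.72 to 13.2). The lines began at different levels and their ratios lay within each other's intervals. The log2 fold change was 2.69 (SE 0.82, adjusted p = 0.0553) without the block and 2.70 (SE 0.26, adjusted p = 3.0e-05) with it in edgeR, where Krt7 rose. Over 14 alternatives the log2 fold change was 2.57 to 2.77 and the adjusted p 3.1e-09 to 0.353, with 7 past the threshold. Leaving out A1005 brought the unpaired test past the threshold (adjusted p = 0.0218).

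Krt18, the type I partner of Krt8, had 153, 579 and 145 counts with DMSO in A1005, A1129 and A1471, and 126, 315 and 53 with Combo. The groups overlapped because A1129 was highest in both. In each line the Combo library was lower than its own DMSO library, with ratios of 0.586 (0.46 to 0.747), 0.518 (0.45 to 0.596) and 0.399 (0.286 to 0.55). Krt18 fell by 1.0 on the log2 scale with the block (SE 0.14, adjusted p = 2.2e-04) in edgeR and was at -0.96 without it (SE 0.83, adjusted p = 0.5). The fall stayed past the threshold in the blocked test when any 1 line was left out, with adjusted p-values up to 0.00889.

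Krt19, a small type I keratin without the usual tail, had 563 counts in A1005 with DMSO and 110 with Combo, a ratio of 0.139 (0.112 to 0.171). The other lines had 1 count in each of these libraries, so the change rests on 1 line. The blocked edgeR value was a fall by 2.69 (SE 0.43, adjusted p = 5.4e-04), and the unpaired value was -2.80 (SE 3.15, adjusted p = 0.622). Without A1005 Krt19 failed the filter and was not tested. Limma-voom without the block gave -0.49.

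Krt8 moved in opposite directions. Its counts with DMSO were 187, 17 and 79 in A1005, A1129 and A1471, and 611, 32 and 31 with Combo. The Combo library was above its DMSO library in A1005 (ratio 2.33, 1.97 to 2.76) and below it in A1471 (0.429, 0.273 to 0.657), while the interval in A1129 (1.79, 0.967 to 3.44) held 1. The log2 fold change was 0.86 (SE 1.34, adjusted p = 0.739) in edgeR, 0.46 (SE 0.42, adjusted p = 0.381) with the block, and -0.58 (adjusted p = 0.723) without A1005. Leaving out A1471 in the blocked test gave 1.09 with an adjusted p of 0.022, so A1471 decided that call.

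**Figure D3:**
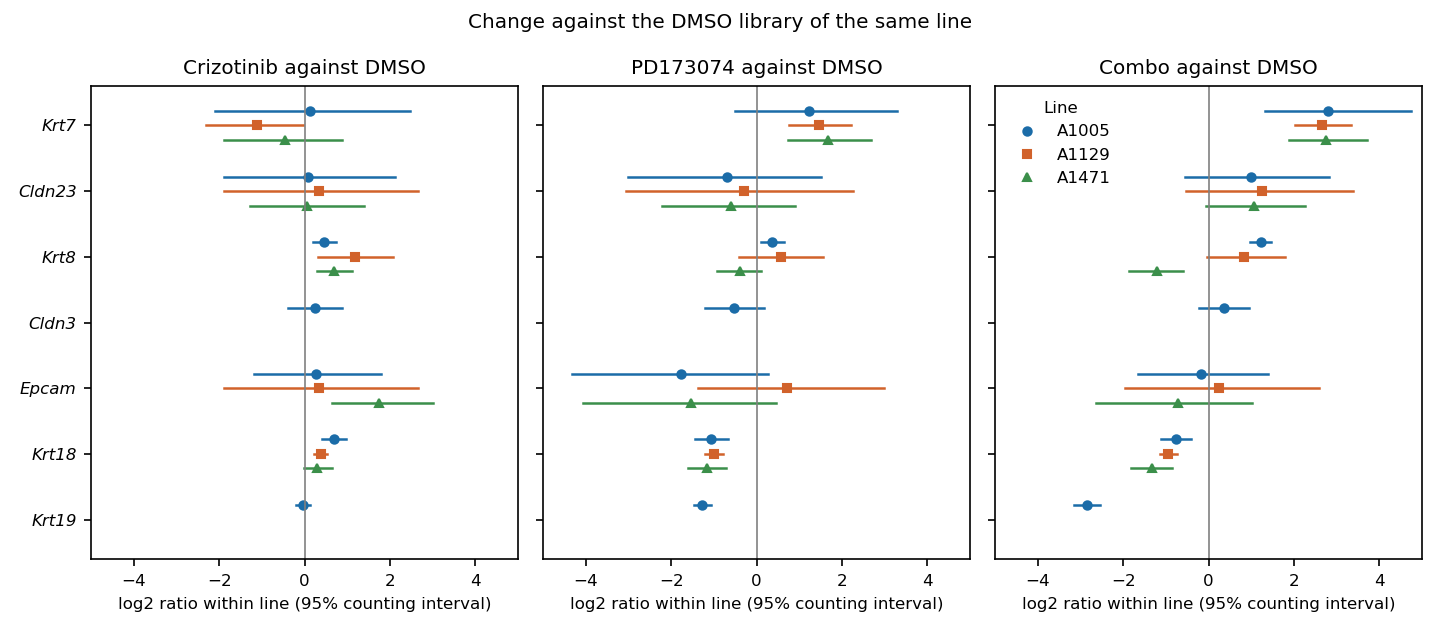
Log2 ratio of each treated library to the DMSO library of the same line (horizontal axis, 0 is no difference) for 7 members, with bars for the 95% exact binomial interval of the counts and a point left out where either library had under 3 counts. With Combo the 3 lines lie together at 2.66 to 2.80 for Krt7 and at -1.32 to -0.77 for Krt18, and on both sides of 0 for Krt8.

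The basal pair was almost silent. Krt5 had 0 counts in every library. Krt14 had 3, 0 and 0 counts with DMSO in A1005, A1129 and A1471, 1, 0 and 0 with Crizotinib, 2, 0 and 0 with PD173074, and 11, 5 and 4 with Combo. The Combo libraries were above all others without overlap, although 11 counts equal 0.611 CPM. Summed over lines, 20 counts with Combo against 3 with DMSO gave a ratio of 6.0 (95% exact interval 1.78 to 31.5). In the blocked edgeR test without a filter on low counts, the adjusted p was 0.0726 against DMSO, 0.015 against Crizotinib and 0.038 against PD173074. Without the block none passed, at 0.411, 0.198 and 0.483 in the same order.

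Among the adhesion genes, Cldn23 had 5, 4 and 11 reads in the DMSO libraries and 14, 10 and 21 in the Combo libraries in A1005, A1129 and A1471. The groups overlapped, and the within-line ratios of 1.99, 2.38 and 2.09 each had an interval that held 1. Summed over lines the ratio was 2.03 (1.17 to 3.62). The log2 fold change was 1.06 (SE 0.61, adjusted p = 0.286) unpaired and 1.07 (SE 0.30, adjusted p = 0.011) with the block in edgeR. The blocked call was lost without A1005 (adjusted p = 0.0623), without A1129 (0.0687) and without a filter on low counts (0.0871). Cldn23 failed the filter without A1471, and likewise when the Combo libraries were left out. It thus entered the tests in part through the Combo libraries, where it is high, so its calls with Combo were favoured by the filter. Cldn3 went from 40 to 72 counts in A1005, a ratio of 1.28 whose interval (0.859 to 1.94) held 1, and its log2 fold change was 0.35 (SE 2.61, adjusted p = 0.956). Epcam had 8, 4 and 9 reads in the DMSO libraries and 10, 5 and 5 in the Combo libraries. The Epcam groups overlapped, and the ratio over lines was 0.857 (0.441 to 1.66), which bounds a rise at 1.66-fold as far as counting error goes. Cldn7 stayed at 0 counts.

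With PD173074 alone Krt7 was higher and Krt18 lower than with DMSO in every line by their values. Krt7 had 12, 61 and 40 counts in A1005, A1129 and A1471 against 4, 24 and 13 with DMSO, and the groups overlapped. Krt18 had 95, 266 and 63 counts against 153, 579 and 145, with ratios of 0.481, 0.5 and 0.448 whose intervals all lay below 1. Krt19 in A1005 had 302 counts against 563 (ratio 0.415, 0.36 to 0.478). The unpaired edgeR test called 0 of 6 members and 0% of all tested genes, with 0 members and 307 genes at an unadjusted p under 0.05. DESeq2 called 0 members and 14 genes, and limma-voom 0 and 0. With the block edgeR called 2 of 6 members, against 2.14% of all tested genes: Krt7 rose by 1.47 (SE 0.28, adjusted p = 0.0259) and Krt18 fell by 1.07 on the log2 scale (SE 0.14, adjusted p = 0.00734). The Krt7 call was lost when any 1 line was left out (adjusted p 0.0754 without A1005, 0.143 without A1129, 0.368 without A1471). The Krt18 call was lost without A1129 (0.069) and without A1471 (0.128). Krt19 (-1.29, adjusted p = 0.134) passed in the blocked test without a filter on low counts (0.0204).

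With Crizotinib alone no member was called. Krt8 had 294, 38 and 123 counts in A1005, A1129 and A1471 against 187, 17 and 79 with DMSO, with ratios of 1.38, 2.24 and 1.62 whose intervals lay above 1. Krt18 had 282, 748 and 172 counts against 153, 579 and 145, with ratios of 1.61, 1.3 and 1.23, the last with an interval (0.984 to 1.55) that held 1. Both partners were thus higher than DMSO in each line by their values, but the groups overlapped. Krt7 had 5, 11 and 9 counts against 4, 24 and 13, with a ratio of 0.46 in A1129 (0.203 to 0.976), intervals that held 1 in A1005 and A1471, and 0.593 over all lines (0.346 to 0.999). The edgeR test called 0 of 6 members and 0% of all tested genes, both without and with the block. An unadjusted p under 0.05 was seen for 18 genes and 0 members unpaired, and for 258 genes and 1 member with the block. In the blocked test Krt18 was at 0.46 (SE 0.13, unadjusted p = 0.00597, adjusted p = 1) and Krt8 at 0.72 (SE 0.42, adjusted p = 1). DESeq2 and limma-voom called 0 members. Epcam had 29 counts in A1471 against 9 with DMSO, a ratio of 3.35 (1.55 to 8.05), and 11 against 8 and 5 against 4 in A1005 and A1129. That A1471 library held the highest Epcam count of all 12.

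Against Crizotinib alone the combination gave the largest Krt7 difference. Krt7 had 5, 11 and 9 counts with Crizotinib in A1005, A1129 and A1471 and 39, 159 and 80 with Combo, with no overlap. The log2 fold change was 3.39 (SE 0.85, adjusted p = 0.0278) in the unpaired edgeR test, the 1 call among 6 members, where 13.2% of all tested genes were called. The call was lost without A1129 (adjusted p = 0.18) and without A1471 (0.27), and over 14 alternatives the adjusted p was 1.0e-10 to 0.27. With the block 4 of 6 members were called, near the 53.4% of all tested genes: Krt7 (3.32), Cldn23 (0.95, adjusted p = 0.0189), Krt18 (-1.45, adjusted p = 2.4e-05) and Krt19 (-2.66, adjusted p = 6.0e-04). The limit that the filter sets for Cldn23 holds here too, and its blocked call was lost without a filter (adjusted p = 0.141). Epcam in A1471 had 5 counts with Combo against 29 (ratio 0.181, 0.0547 to 0.473).

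Against PD173074 alone, 0 of 6 members passed the unpaired edgeR test and 4.77% of all tested genes did. Cldn23 (1.62, SE 0.62, adjusted p = 0.185) was the 1 member at an unadjusted p under 0.05, and DESeq2 and limma-voom called 0 members. DESeq2 gave no adjusted p for Cldn23 here. With the block 3 of 6 were called, where 39.8% of all tested genes were. Krt7 rose by 1.23 (SE 0.23, adjusted p = 0.00271), Cldn23 rose by 1.62 (SE 0.31, adjusted p = 0.00308) and Krt19 fell by 1.41 on the log2 scale (SE 0.42, adjusted p = 0.0244). The limit that the filter sets for Cldn23 holds here too, though it passed in the blocked test without a filter (adjusted p = 0.0134). Krt18 was at 0.07 (SE 0.14, adjusted p = 0.705), with 95, 266 and 63 counts with PD173074 and 126, 315 and 53 with Combo. Summed over lines its ratio was 1.1 (0.964 to 1.26).

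The design crosses both inhibitors, so the change with Combo can be set against the sum of both single changes on the log2 scale. For Krt7 the sum was 1.35, 0.35 and 1.19 in A1005, A1129 and A1471 and the change with Combo was 2.80, 2.66 and 2.75, which leaves a departure of 1.45, 2.31 and 1.56. Of 6 members, edgeR called 0 in the unpaired test (0.918% of all tested genes) and 1, Krt7, with the block (16.2%), where the departure was 1.86 (SE 0.40, adjusted p = 0.0155). No member had an unadjusted p under 0.05 in the unpaired test, and limma-voom called 0. DESeq2 gave an adjusted p only for Krt8 and Krt18 and called neither, so it gave no result for Krt7. The Krt7 call was lost without A1129 (adjusted p = 0.176) and without A1471 (0.123). Krt18 departed by -0.40, -0.32 and -0.47 in the 3 lines, which did not pass (adjusted p = 0.196 with the block).

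The balance between Krt8 and its partner Krt18 can be read within a library, where sequencing depth cancels. Per transcript length the ratio of Krt8 to Krt18 with DMSO was 0.897 in A1005 (95% exact interval 0.721 to 1.12), 0.0215 in A1129 (0.0125 to 0.0348) and 0.4 in A1471 (0.3 to 0.53). A1005 thus held the partners at similar levels and A1129 held far more Krt18. With Combo the ratio was 3.56 in A1005 (2.93 to 4.35), 0.0746 in A1129 (0.0501 to 0.107) and 0.429 in A1471 (0.266 to 0.681). It was higher than with DMSO beyond counting error in A1005 and A1129, and the intervals overlapped in A1471. With PD173074 the ratio was 2.42, 0.0635 and 0.676 in A1005, A1129 and A1471, above the DMSO value in each line, although the intervals with PD173074 (0.465 to 0.981) and DMSO overlapped in A1471. The ratio of Krt7 to Krt18 was higher with Combo in each line, at 0.109, 0.177 and 0.53 against 0.00918, 0.0145 and 0.0315 with DMSO, with no overlap of the intervals within a line.

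**Figure D4:**
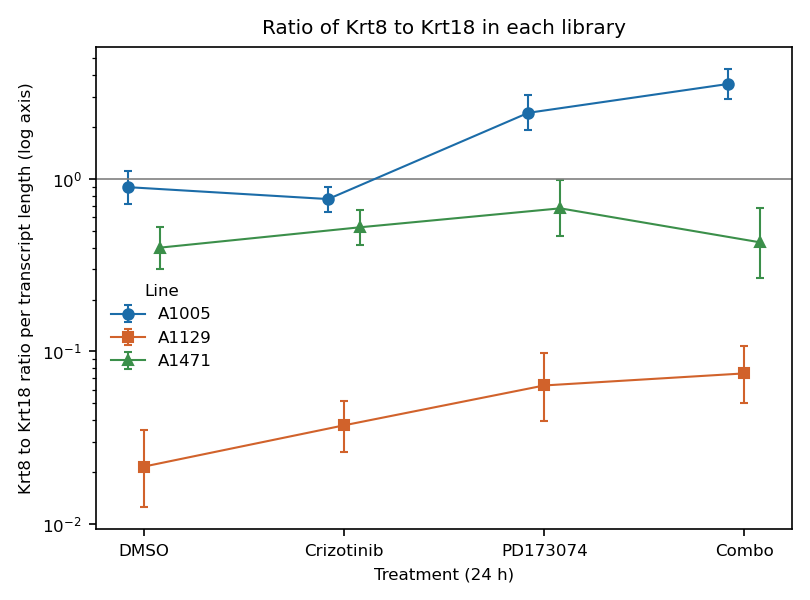
Ratio of Krt8 to Krt18 per transcript length in each library (vertical axis, log axis) by treatment, with bars for the 95% exact binomial interval of the counts and points of a line joined. A1005 moves from 0.897 with DMSO to 3.56 with Combo, A1129 lies at 0.0215 to 0.0746 and A1471 at 0.4 to 0.676.

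The members stand among other epithelial genes, counted here with Combo against DMSO, where 6.1% of all tested genes were called higher and 8.28% lower unpaired, and 28.6% higher and 26.2% lower with the block. Of 47 other keratins, 19 had 0 counts throughout and 7 were tested. None passed unpaired in edgeR, DESeq2 or limma-voom (0 at an unadjusted p under 0.05 in edgeR, median log2 fold change -0.89, against 0.02 for all tested genes), and with the block 1 rose and 3 fell. Krt76, a type II keratin of the oral palate, had 2044, 174 and 721 counts with DMSO in A1005, A1129 and A1471 and 549, 5 and 59 with Combo. It fell by 3.04 with the block (adjusted p = 8.0e-05) and was at -2.64 unpaired (adjusted p = 0.303). Krt23 (-5.67, adjusted p = 1.7e-04) and Krt13 (-2.20, adjusted p = 0.00746) fell and Krt16, a keratin of stressed epidermis, rose (2.10, adjusted p = 0.0175) with the block, none of them unpaired. Krt23 had at most 3 counts with Combo and passed the filter through DMSO and Crizotinib libraries, where it is high.

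Of 31 other claudins, 16 had 0 counts throughout and 5 were tested, of which 1 rose unpaired and 2 rose and 1 fell with the block (median -0.31 unpaired). The riser in both was Cldn1, a core barrier claudin, with 0, 2 and 1 counts with DMSO and 2, 63 and 64 with Combo in A1005, A1129 and A1471 (adjusted p = 0.0448 unpaired and 1.4e-04 with the block in edgeR). Of these claudins DESeq2 called 1 and limma-voom 0, with 0 at an unadjusted p under 0.05 in limma-voom. The 129 against 3 counts of Cldn1 give a ratio of 38.7 (95% exact interval 13 to 190.0), carried by A1129 and A1471. Cldn1 reached 10 counts only with PD173074 and Combo in these lines. It thus passed the filter only through groups where it is high, so its calls were favoured by the filter. Cldn12, at 47.2 CPM ± 9.71 (SD, n = 3) with DMSO, fell by 0.46 with the block (adjusted p = 0.0198). Of the other tight junction genes, 13 of 17 in the table were tested, none was called unpaired in edgeR (2 at an unadjusted p under 0.05, 2 called by DESeq2 and 0 by limma-voom), and 5 rose and 2 fell with the block (median 0.24 unpaired). Cgn (cingulin, a cytoplasmic plaque protein) had 47, 5 and 22 reads in the DMSO libraries and 518, 73 and 133 in the Combo libraries. It rose by 3.01 with the block in edgeR (adjusted p = 1.5e-05). In that test the transmembrane protein Ocln (occludin) fell by 2.47 (adjusted p = 0.00766). Its counts in A1005, A1129 and A1471 were 25, 2 and 5 with DMSO and 6, 1 and 0 with Combo. Ocln reached 10 counts only in A1005 with DMSO, Crizotinib and PD173074, where it is high, so its call was favoured by the filter. The tight junction scaffold Tjp1 (ZO-1) did not pass with the block (-0.11, adjusted p = 0.456).

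Of 11 adherens junction genes 8 were tested, with none called unpaired in edgeR (1 at an unadjusted p under 0.05, 1 called by DESeq2 and 0 by limma-voom) and 3 higher and 1 lower with the block (median 0.18 unpaired). Jup (plakoglobin) rose by 1.73 (adjusted p = 0.00174) and Ctnnb1 (beta-catenin) by 0.59 (adjusted p = 0.00736) in the blocked edgeR test. Cdh1 was not tested: it had 14 counts with Combo against 2 with DMSO (ratio 6.3, 1.45 to 57.1). Of 16 desmosome and hemidesmosome genes 11 were tested, with none called unpaired in edgeR (3 at an unadjusted p under 0.05, 3 called by DESeq2 and 0 by limma-voom) and 3 higher and 2 lower with the block (median -0.18 unpaired), among them the plaque protein Pkp2 (1.18, adjusted p = 1.7e-04) and the laminin receptor chain Itga6 (-1.36, adjusted p = 1.6e-04). Of 15 other epithelial membrane genes 6 were tested, with none called unpaired in edgeR (1 at an unadjusted p under 0.05, 0 called by DESeq2 and by limma-voom) and 4 higher and 1 lower with the block (median 1.09 unpaired). The mucin Muc1 (2.49, adjusted p = 0.00838) and the surface glycoprotein Cd24a (1.78, adjusted p = 0.00206) rose and the protease inhibitor Spint1 (-1.87, adjusted p = 0.0123) fell there. Muc1 reached 10 counts only with PD173074 and Combo, where it is high, so its call was favoured by the filter.

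Regulators of epithelial genes were called in both directions, as were all tested genes. Of all tested genes 6.1% were called higher and 8.28% lower unpaired, and 28.6% higher and 26.2% lower with the block. Of 19 epithelial transcription and splicing factors 12 were tested, with 1 higher and 2 lower unpaired and 4 higher and 2 lower with the block (median 0.72 unpaired). Grhl2, an activator of epithelial junction genes, had 78, 47 and 140 counts with DMSO in A1005, A1129 and A1471 and 15, 6 and 16 with Combo, with no overlap (-2.95, adjusted p = 0.0328 unpaired). Klf5 fell by 1.44 (adjusted p = 0.0148) and the GATA-like repressor Trps1 rose by 0.72 (adjusted p = 0.0365) unpaired. The Ets factor Ehf had 4, 1 and 0 reads in the DMSO libraries and 127, 16 and 7 in the Combo libraries. It rose by 4.39 with the block in edgeR (adjusted p = 4.2e-05). No DMSO or Crizotinib library held more than 4 reads of Ehf. It thus passed the filter only through PD173074 and Combo libraries, where it is high, so its call was favoured by the filter. Of 8 repressors of epithelial genes 7 were tested, and Twist1 (-1.09, adjusted p = 0.00156) and Twist2 (-0.82, adjusted p = 0.0466) fell unpaired, with 2 higher and 3 lower with the block (median 0.16 unpaired). Zeb1 (0.26, adjusted p = 0.592) and Zeb2 (0.52, adjusted p = 0.481) did not pass unpaired, and Zeb2 rose by 0.51 with the block (adjusted p = 0.0133).

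Markers of the mammary lineages and of mesenchymal cells gave no uniform direction. Of 13 luminal markers, which include Krt8, Krt18, Krt19 and Epcam, 7 were tested and 0 called unpaired, with 1 higher and 3 lower with the block, and Csn2 (beta-casein) had 0 counts in all libraries. For these luminal and the basal markers below, 0 were at an unadjusted p under 0.05 in the unpaired edgeR test and 0 were called by DESeq2 and by limma-voom. The summed luminal level was 22.9 to 96.5 CPM with DMSO and 10.2 to 62.9 with Combo. Of 8 basal markers, which include Krt5 and Krt14, 3 were tested and 0 called in either test, with a summed level of 6.64 to 25.8 CPM with DMSO and 6.94 to 32.9 with Combo. Of 10 mesenchymal markers 8 were tested, with 2 lower unpaired (Twist1 and Twist2) and 1 higher and 4 lower with the block, and Vim did not pass (-0.14, adjusted p = 0.739). The 1 tested immune marker, Ptprc, did not pass either (adjusted p = 0.961), and no endothelial marker was tested. Whether a change in the makeup of the spheres plays a part in the members' changes was not tested.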

How the data were processed

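The authors deposited a single matrix of read counts, unnormalised and whole, for Ensembl genes in 12 libraries. Per the labels and the study's methods, reads from a NextSeq500 were aligned with STAR to mm10, and the submitters' processing notes also name bcl2fastq and HTSeq. The annotation release and the use of strand in counting are not given in the sources used here, so overlapping antisense genes cannot be told apart. The study's own test was unpaired.

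Members were matched by symbol. The members and gene lists were chosen with earlier results of these data known. Positions and transcript lengths were read from GENCODE for mm10 (55480 of 55573 genes matched), and promoter windows from RefSeq (GRCm38.p6). One listed tight junction symbol was not matched in the table. Low counts were removed by filterByExpr (at least 10 counts, 15 in total), and the remaining genes were normalised by TMM and tested with edgeR 4.0.16 (glmQLFit and glmQLFTest, R 4.3.3) in 1 unpaired fit over all 12 libraries, two-sided, with Benjamini-Hochberg adjustment over all 13836 tested genes and a threshold of 0.05. Standard errors were derived from the fold change and the F statistic. Departure from additivity was Combo minus Crizotinib minus PD173074 plus DMSO. Lines were compared in a fit of line and treatment. CPM used TMM-scaled library sizes, and levels between genes used CPM per kb of the principal transcript. Intervals for ratios of counts are exact (Clopper-Pearson, 95%), conditional on library sizes, and a floor of 3 counts was used for a group at 0. Comparisons that have a treatment in common share its libraries.

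The lines pair the libraries, since same-numbered samples are the same cell line per the labels: deviations from the treatment means correlated at 0.766 or more in all 18 same-line pairs and at most -0.0472 in 36 pairs of different lines. The replicates are separate lines for treatments. No 2 libraries were identical. Alternatives were a block for the line, limma-voom 3.58.1, DESeq2 1.42.0 and its size factors, total counts alone, no filter, a minimum of 10 counts per library, the compared groups only, a prior count of 0.5 for log2 CPM (main 2), and leaving out each line or treatment. Leaving out a line with the block kept was added after seeing the data. The tests were checked on simulated counts. Tables and plots were made with Python 3.11.15, pandas 2.3.3, scipy 1.17.1 and matplotlib 3.10.9.

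Genes named were the members, listed genes past the threshold or defining by role, and for each tested member the 3 tested genes whose log2 CPM followed it best over the 12 libraries.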

Additional observations from a re-analysis of the deposited data

Results flagged for a closer look

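Krt8 was the 1 member that moved in opposite directions in 2 lines beyond counting error, with Combo in each case. Against DMSO its log2 ratio was 1.22 in A1005 and -1.22 in A1471. Against Crizotinib it was 0.76 in A1005 and -1.92 in A1471, and against PD173074 it was 0.84 and -0.82. These 3 comparisons share the same Combo libraries, so they are not independent of each other. With 1 library per line and treatment, the difference between lines was not tested.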

How the results depend on the processing

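With the replicate block (the cell line, which pairs the libraries), the members called were 4 with Combo against DMSO, 2 with PD173074 against DMSO, 4 and 3 with Combo against Crizotinib and PD173074, and 1 for the departure from additivity, and with no filter as well they were 3, 3, 4, 4 and 1. DESeq2 called 1 with Combo against DMSO. Combo against Crizotinib had 0 with limma-voom and 0 with at least 10 counts in every library, where 2 members were tested. Leaving out 1 line gave 0 to 4 with Combo against DMSO, 0 to 1 with PD173074 against DMSO, 0 to 3 with Combo against Crizotinib, 0 to 3 with Combo against PD173074 and 0 to 1 for the departure, the higher values with the block. Without the treatment term, 3 were called for A1471 against A1005 and 2 for A1471 against A1129, and leaving out a treatment gave 2 to 4 for the latter. Krt8 changed sign against DMSO without A1005: -0.58 (-0.28 with the block) with Combo and -0.18 (-0.05) with PD173074. Combo against Crizotinib for Krt8 turned to -0.27 with the block, -0.38 with limma-voom, -0.28 with the block and no filter, -1.38 without A1005 (-1.12 with the block) and -0.22 without A1129 with the block. Combo against PD173074 for Krt8 was -0.41 without A1005 (-0.22 with the block). The Krt8 departure turned to -0.38 with the block, -0.66 with limma-voom, -0.40 with the block and no filter, -1.20 without A1005 (-1.06 with the block), -0.24 without A1129 and -0.08 without A1471, both with the block. Krt18 with Combo against PD173074 was -0.02 without A1005 with the block. Limma-voom turned Cldn3 to -0.02 with Combo and -0.28 with Crizotinib against DMSO, and Krt19 to 0.46 with Combo against PD173074 and 0.52 for the departure. Over the fits that leave out 1 line, Krt8 reached 1.19 with Combo and 0.41 (0.45 with the block) with PD173074 against DMSO, 0.68 and 0.78 with Combo against Crizotinib and PD173074, and 0.27 for the departure, each without A1471. None of these sign changes passed the threshold, and the cause was not tested. Of all values of single members under the alternatives, 511 kept direction and side of the threshold, 50 passed it newly, 17 lost it and 24 changed sign. Counts under about 10, as for Krt14, Epcam and Cldn23, limit these genes.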

Other observations

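Summed per kb of transcript over all keratin genes, type II keratins stood at 80.8, 15.7 and 28.7 CPM per kb with DMSO in A1005, A1129 and A1471, and at 36.1, 12.6 and 8.97 with Combo. Type I keratins stood at 52.5, 29.1 and 8.98 CPM per kb with DMSO and at 16.1, 17 and 7.75 with Combo. Both sums were thus lower with Combo in every line. Krt76 alone made up 69 of the type II sum in A1005, 4.95 in A1129 and 21.5 in A1471 with DMSO, and 13.2, 0.136 and 1.93 with Combo. Without Krt76 the type II sum was 11.7, 10.8 and 7.2 CPM per kb with DMSO and 22.9, 12.5 and 7.04 with Combo. Its fall was thus not seen in A1005 and A1129. In A1471 it went from 7.2 to 7.04, against 28.7 to 8.97 with Krt76 included. In A1005 Krt19 made up 27.9 of the type I sum with DMSO and 3.88 with Combo, and without it that sum was 24.6 and 12.2 CPM per kb. The ratio of the type II to the type I sum with DMSO was 1.54, 0.54 and 3.2 in the same order of lines.

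Among the other intermediate filament genes, 10 of 13 were tested with Combo against DMSO. Of these, 4 were lower unpaired, and 1 was higher and 6 lower with the block in edgeR (median log2 fold change -1.13 unpaired). Of all tested genes 8.28% were called lower unpaired, and 28.6% higher and 26.2% lower with the block (median 0.02 unpaired). The 4 called lower unpaired were Nes (nestin, -2.14, adjusted p = 0.00956) and the lamins of the nuclear envelope. These were Lmna (-0.76, adjusted p = 0.0276), Lmnb1 (-1.89, adjusted p = 0.00494) and Lmnb2 (-1.51, adjusted p = 0.00212). The neurofilament gene Nefl fell by 4.60 with the block (adjusted p = 5.9e-04), and Synm (synemin) rose by 3.64 (adjusted p = 0.00174). No A1005 library held more than 3 reads of Nefl, so its fall rests on A1129 and A1471. No Combo library held more than 8, so Nefl passed the filter only through other libraries of those lines, where it is high. The Nefl call was thus favoured by the filter.

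As a description over the 12 libraries, which share 3 lines and 4 treatments, the log2 CPM of Krt7 was followed best by Cog2 (Pearson r = 0.969), Irf9 (0.966) and Ttc3 (0.965). Krt18 was followed best by Tert (0.967), Trim54 (0.962) and Aatk (0.952), Krt8 by Fahd2a (0.981), Gm13261 (0.972) and Txndc11 (0.97), and Cldn23 by Pdcd4 (0.94), Acsf3 (0.925) and P3h1 (0.917). Krt19 was followed by Igfbp3 (0.995), Car2 (0.995) and AI661453 (0.994), and Cldn3 by 9530002B09Rik (0.996), Abr (0.995) and Gjb5 (0.995). For Krt19 and Cldn3 the points are mainly A1005 against the other lines.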
